A study of Mus musculus with 4 samples.

Results

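Small groups of neighbouring Hopx regions on the mouse autosomes are described here. In a list of 3775 regions pulled down with tagged Hopx from embryonic hearts, 3636 lay on the 19 autosomes. Regions with at most 10 kb between the end of one and the start of the next were joined into blocks, and the members are all regions of autosomal blocks that held 2, 3 or 4 regions. They were chosen by their distances to each other alone. By this rule 218 regions were members, 6.00% of the autosomal regions and 5.77% of the whole list, in 98 blocks. The gaps and the block sizes are therefore given as descriptions, with no test. The list has no measured value per region, such as height or enrichment, and is the only deposited result analysed here.

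Hopx consists of little more than a homeodomain that has lost direct contact with DNA, and partner proteins bring it to chromatin. It is known in the developing heart as a regulator of progenitors on their way to cardiac muscle cells, where it has been linked to serum response factor, to GATA4 with histone deacetylases, and to the BMP and Wnt signalling pathways. Regulatory DNA such as enhancers often lies in clusters around developmental genes, and a chromatin pull-down can also gather signal at repeated sequence. A list of positions alone shows where neighbouring regions stand, not which of these they are.

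Hearts were dissected at embryonic day 9.5 from embryos heterozygous for Flag-tagged Hopx (Hopx3XFlag/+), and the hearts of several litters were pooled. All chromatin was fixed in 1% formaldehyde for 10 min. The 4 libraries formed 4 groups of 1: an anti-Flag (Sigma M2) library and an input library without EGS, and an anti-Flag and an input library with EGS, a crosslinker with a long spacer that joins protein to protein. All 4 groups came from hearts of the same genotype, so no library from untagged hearts was analysed here. The deposited regions are merged over the series, and no region could be traced to a library or a crosslinking condition. The list gives no read counts, and the depth behind it is unknown.

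The positions were taken as those of the mouse build mm9, which the submitters' processing notes name. No sequence or annotation of mm9 was used here, so that no gene, exon, promoter, repeat or motif was assigned to a member, and the members are named by position. All intervals below are exact at 95%, by Clopper-Pearson for shares and by Poisson for densities, except that of a median, which comes from order statistics. They cover counting error only, and they treat regions or blocks as independent, which regions of 1 block are not.

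Most small blocks were pairs. There were 80 blocks of 2, with 160 regions, 14 blocks of 3, with 42, and 4 blocks of 4, with 16. A block reached from 511 bp to 17.2 kb, with a median of 4.96 kb. Blocks of 3 were no longer than pairs at the median, with spans of 3038 bp and 4896 bp, whereas the 4 blocks of 4 had a median of 7831 bp. The 218 regions covered 44.2 kb in all. Of them 207 had the same width, that of every region made from 1 peak, and the other 11 were wider by 1 to 108 bp, reaching 202 to 309 bp.

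Inside the blocks, the number of gaps per kb was highest at the shortest distances, although most gaps were longer than 1 kb. The 120 gaps between members of the same block ranged from 66 to 9914 bp, with a median of 3404 bp (2460 to 4583). Gaps of up to 1 kb numbered 30, and the next kb held 14. From 2 to 5 kb there were 10.7 gaps per kb, and from 5 to 10 kb there were 8.80. Over all autosomal regions the same ranges held 64, 22, 13.3 and 9.60 gaps per kb, and beyond the limit there were 80 gaps from 10 to 20 kb, or 8 per kb, and 4.60 per kb from 20 to 30 kb. The gaps of the members thus had a high count at the shortest distances and lower counts per kb in each longer range. Over all autosomal regions the count per kb also fell from range to range, but up to 10 kb these are largely the same gaps. The members' gaps were 120 of the 174 there and 44 of the 48 from 5 to 10 kb, and the rest lay in larger blocks. The count over all autosomal regions changed little across the limit of the rule, from 9.60 between 5 and 10 kb to 8 between 10 and 20 kb.

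**Figure D1:**
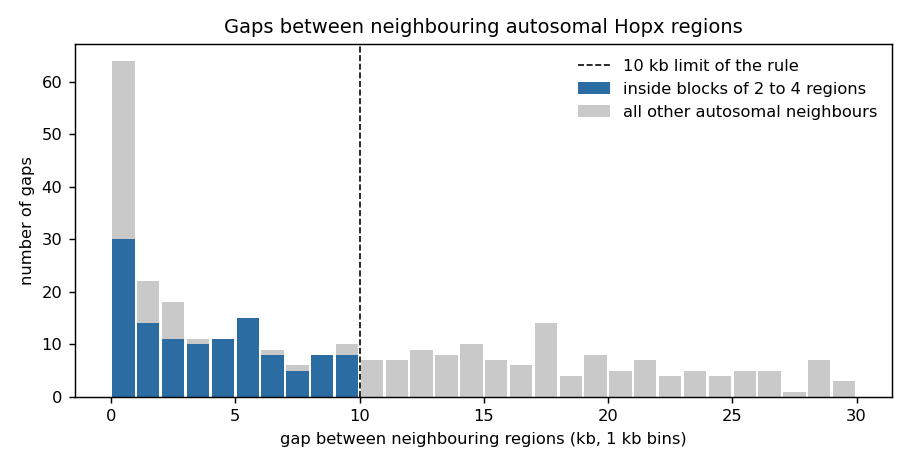
Number of gaps between neighbouring autosomal regions (y axis) by length in bins of 1 kb (x axis), with gaps inside blocks of 2 to 4 regions in blue, all others in grey on top, and the 10 kb limit dashed. The first bin holds 64 gaps, 30 of them in small blocks, and the 10 bins from 10 to 20 kb hold 80 together.

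The limit of 10 kb thus lay where the number of gaps per kb changed little. The longest gaps just inside it were 9914 bp in the pair on chromosome 19 from 22168205 to 22178520, 9895 bp on chromosome 5 from 15195861 to 15206157 and 9651 bp on chromosome 13 from 55200711 to 55210763. The shortest just outside were 10126 bp on chromosome 16, between regions at 16461995 and 16472322, and 10137 bp on chromosome 1, between regions at 85241471 and 85251809. The second of these gaps borders a block of 4 described below, which would have held 5 regions and been left out had the gap been shorter by 137 bp.

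The 4 blocks of 4 regions differed in their layout, and none of their 16 regions was merged from 2 peaks. The longest lay on chromosome 1 from 85251809 to 85269009, with gaps that widened along the chromosome from 1794 to 5860 and 8743 bp. On chromosome 5 from 33073574 to 33080465 the gaps were 2779, 2350 and 959 bp, the most even of these blocks. On chromosome 8 from 19920240 to 19929008 a close pair, 303 bp apart, stood in the middle with gaps of 4279 and 3383 bp on either side. On chromosome 9 from 115054510 to 115061300 a region stood 5146 bp before a tight set of 3, which were 587 and 254 bp apart. That block had the largest ratio between its longest and shortest gap, 20.3, of all 18 blocks with more than 2 regions, whose median ratio was 2.21.

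Blocks of 3 ranged from tight sets in under 2 kb to loose sets with several kb between regions. The tightest lay on chromosome 2 from 80252671 to 80253488, where 3 regions stood in 818 bp with gaps of 149 and 66 bp, the shortest gap of all members. Its 3 regions covered 73.7% of the block. The next regions outside it were 398 kb and, on the distal side, 6645301 bp away. On chromosome 3 from 8245263 to 8246519 the gaps were 265 and 389 bp, and on chromosome 15 from 74915913 to 74917473, the only small block of that chromosome, they were 582 and 376 bp. A block on chromosome 19 from 61339900 to 61341826, which held the last regions of that chromosome, had gaps of 129 and 1195 bp. On chromosome 2 from 27353321 to 27355751 the gaps were 1706 and 122 bp.

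The loosest blocks of 3 had gaps of 2693 to 7866 bp. The longest, on chromosome 8 from 75240357 to 75254190, had gaps of 5365 and 7866 bp. On chromosome 14 from 58295009 to 58306573 they were 6001 and 4961 bp, and on chromosome 10 from 57689171 to 57700694 they were 5109 and 5812 bp, the most even of all with a ratio of 1.14. On chromosome 8 from 19965816 to 19977307 the gaps were 4120 and 6769 bp, and on chromosome 2 from 119153599 to 119161176 they were 4282 and 2693 bp. In each of these 5 blocks the regions covered at most 7.96% of the span. Of the 18 blocks with more than 2 regions, 8 had a ratio under 2 between their longest and shortest gap and 4 had one over 10.

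**Figure D2:**
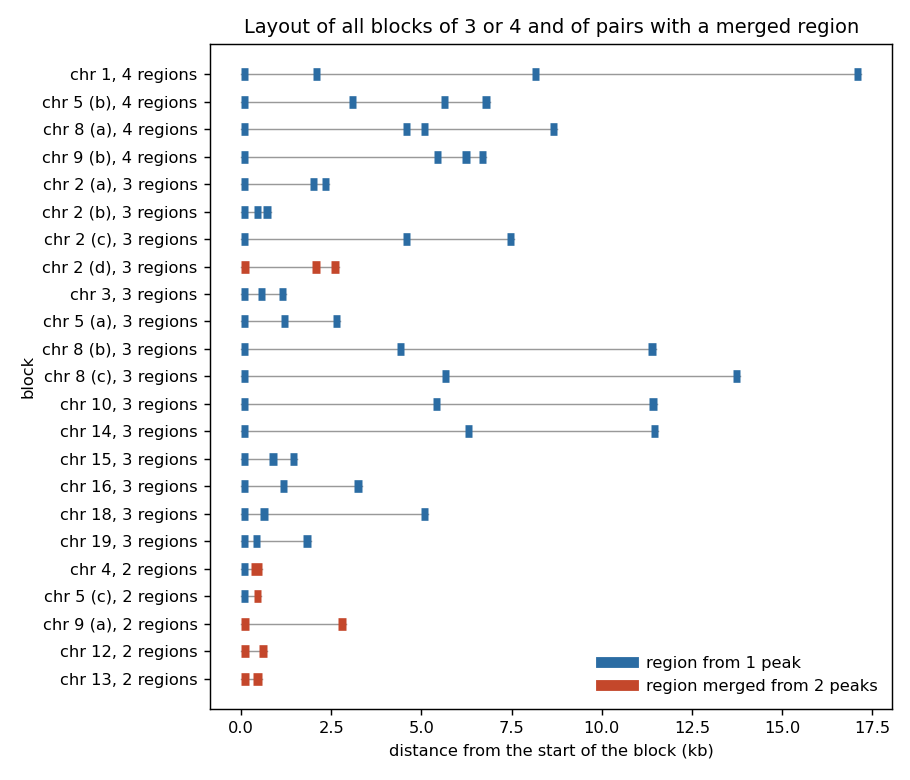
Layout of all 18 blocks of 3 or 4 regions and of the 5 pairs that hold a region merged from 2 peaks; the x axis is the distance from the start of the block in kb, each line on the y axis is a block (letters give the order along a chromosome), blue bars are regions from 1 peak and red bars regions merged from 2. The longest block, on chromosome 1, reaches 17.2 kb, and red bars fill 4 blocks whole.

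Among the 80 pairs, 11 had regions less than 300 bp apart. The closest lay on chromosome 4 from 80479709 to 80480299 (81 bp), on chromosome 13 from 55275659 to 55276236 (93 bp), on chromosome 12 from 86855746 to 86856256 (109 bp), on chromosome 5 from 37052198 to 37052748 (148 bp) and on chromosome 4 from 118220759 to 118221315 (155 bp). Of these 5 pairs 3 held a region merged from 2 peaks, and those on chromosome 12 and at 118220759 on chromosome 4 held none. The other 6 close pairs lay on chromosomes 6, 10, 11, 12 and 13, with gaps of 208 to 292 bp. At the other end stood the 3 pairs just inside the limit and those on chromosome 4 from 108857460 to 108867353 (9492 bp) and on chromosome 8 from 129720978 to 129730823 (9444 bp). The blocks not named by the rule for naming comprised 67 pairs on 17 autosomes and 2 blocks of 3. Those 67 pairs had gaps of 208 to 9414 bp with a median of 4583 bp: 8 were under 1 kb, 29 from 1 to 5 kb and 30 above. The 2 remaining blocks of 3, named only to complete that size, lay on chromosome 5 from 15004673 to 15007408, with gaps of 892 and 1241 bp, and on chromosome 16 from 18601177 to 18604515, with gaps of 867 and 1869 bp.

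Each region name ends in 1 or 2, which was read as the number of peaks merged into the region. As the list is merged over the series, 2 merged peaks may stem from 1 library or from different ones. These cases cannot be told apart. The rule did not use this number, and 11 of the 218 members, or 5.05% (2.55 to 8.85%), were merged from 2 peaks. Over all autosomal regions the share was 1.46% (1.09 to 1.90%). It was 0.242% (0.0293 to 0.872%) among the 826 regions whose nearest neighbour stood 10 to 100 kb away, and 0.395% (0.190 to 0.725%) among the 2531 isolated beyond 100 kb. In blocks of 5 or more it was 49.2% (36.1 to 62.3%), 30 of 61 regions, but 23 of those 30 came from 1 block on chromosome 9 from 3000007 to 3038297. Without that block it was 20% (8.44 to 36.9%), 7 of 35 regions, of which 5 came from 1 block on chromosome 2 from 98502397. The lower end of this interval lay just below the upper end of that of the small blocks. By block, 4 of 7 larger blocks held a merged region (18.4 to 90.1%) and 3 held none. The interval of the small blocks lay above those of both kinds of region that stood alone. The difference was not tested, because regions of a block are not independent, and a merged region is itself made of peaks that lie close together.

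**Figure D3:**
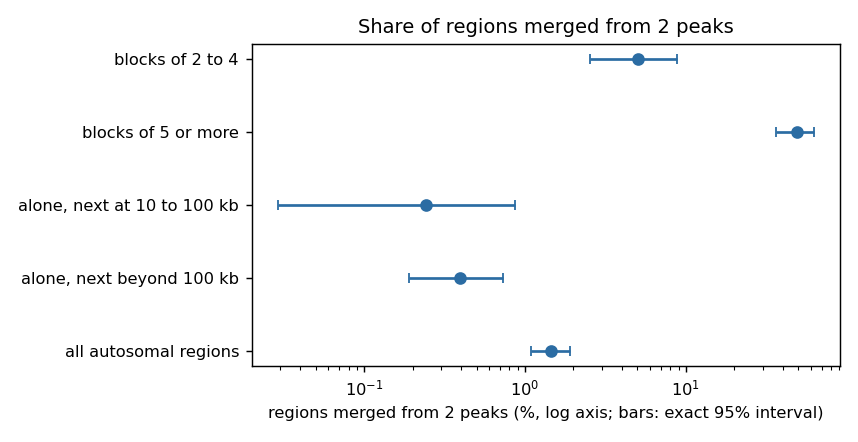
Share of regions merged from 2 peaks in percent (x axis, log scale) in the blocks of 2 to 4, the larger blocks, the regions standing alone at 10 to 100 kb or beyond 100 kb, and all autosomal regions (y axis); bars are exact 95% intervals. The small blocks stand at 5.05% and the lone regions under 0.4%; the 49.2% of the larger blocks becomes 20% without 1 block on chromosome 9.

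The 11 merged regions came from 6 blocks on 6 chromosomes, and in 4 of these blocks every region was merged. Counted by block, 6 of 98 held such a region (6.12%, 2.28 to 12.9%). The 4 blocks that were merged throughout held 9 of the 11. On chromosome 2 from 147191586 to 147194305, all 3 regions were merged, with widths of 212, 229 and 227 bp and gaps of 1759 and 293 bp. On chromosome 9 from 8001452 to 8004369, both regions of a pair 2460 bp apart were merged, 215 and 243 bp wide. On chromosome 12 between 75904816 and 75905545, the widths were 207 and 233 bp and the gap 290 bp. On chromosome 13 from 55275659 to 55276236, they were 231 and 254 bp and the gap was 93 bp.

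In the last 2 of the 6 blocks, 1 region was merged and its partner came from 1 peak. On chromosome 4, the region from 80479991 to 80480299 was 309 bp wide, the widest of all members, and stood 81 bp from its partner. On chromosome 5 the region from 37052547 to 37052748 was 202 bp wide and stood 148 bp from its partner. With parent peaks of the width common to all regions from 1 peak, those of the first shared 93 bp and those of the second 200 bp. Under the same assumption the parents of the other 9 shared from 148 bp (chromosome 13, from 55275983) to 195 bp (chromosome 12, from 75904816), so that 10 of the 11 came from peaks sharing at least 50% of their length. The 2 peaks behind a merged member stood at a median of 28 bp from each other, with a range of 1 to 108 bp. The median was 42 bp for the 2 merged regions spaced 10 to 100 kb, 9.5 bp for the 10 isolated ones and 2 bp for the 30 of larger blocks, which became 37 bp without the chromosome 9 block. None of the 11 members and neither of the 2 spaced regions came from peaks at the same position, nor did any of the larger blocks' 7 outside that block. Peaks at the same position lay behind 1 of the 10 isolated merged regions and 9 of the 30 in larger blocks.

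Inside the small blocks, where the rule keeps every gap to at most 10 kb, gaps beside a merged region were mostly short. Gaps from a merged region to the next region outside its block, all above 10 kb by the rule, were left out. Of the 7 gaps inside blocks that bordered at least 1 merged region, 5 were under 300 bp. The longest was 2460 bp, with a median of 290 bp. Of the 113 gaps inside blocks between regions from 1 peak, 13 were under 300 bp (11.5%), and the median was 3756 bp. The gaps came from only 6 blocks on one side of this comparison, and it was not tested.

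Small blocks were found on all 19 autosomes, at 0.0411 per Mb (0.0333 to 0.0501) of autosomal sequence, each chromosome being measured from its first to its last region. The density ran from 0.0102 per Mb on chromosome 15 (1 block, 0.000258 to 0.0568) to 0.0722 on chromosome 4 (11 blocks, 0.0360 to 0.129). The intervals of all 19 chromosomes included the autosomal mean, but with so few blocks per chromosome they were wide and do not show equal densities. Chromosome 2 held most members, 24 in 10 blocks. As a share of the regions on a chromosome, members ranged from 1.97% on chromosome 7 (4 of 203, 0.539 to 4.97%) to 11.1% on chromosome 8 (20 of 180, 6.92 to 16.6%). These 2 intervals did not overlap, and neither included the autosomal share of 6.00%, although chromosomes 7 and 8 were picked as the extremes of 19. On chromosome 8, 7 of the 20 members came from the neighbouring blocks from 19920240 described below.

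**Figure D4:**
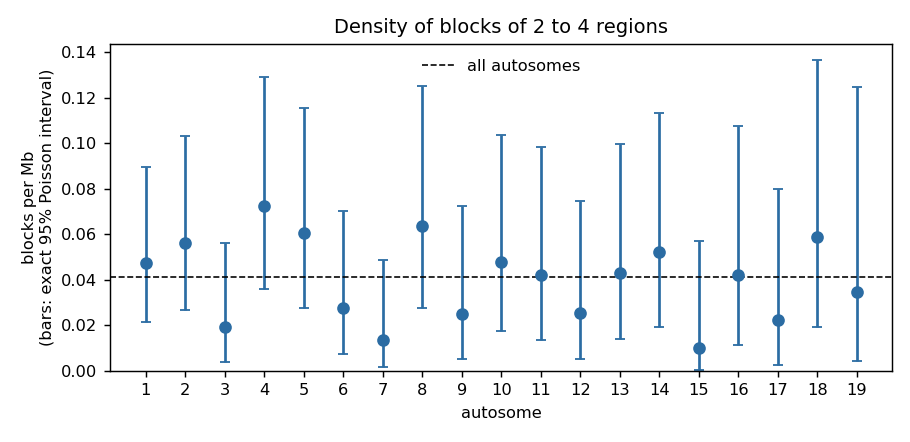
Blocks of 2 to 4 regions per Mb (y axis) on each autosome (x axis), with exact 95% Poisson intervals as bars and the mean of all autosomes, 0.0411, dashed. Values run from 0.0102 on chromosome 15 to 0.0722 on chromosome 4, and every bar crosses the dashed line.

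Along the chromosomes the blocks showed no clear gradient. When each span was divided into 5 equal parts from the proximal to the distal end, these held 21, 14, 24, 19 and 20 of the 98 blocks. Of the 3357 single regions, the same parts held 557, 654, 630, 681 and 835. The most distal part thus held 20.4% of the blocks (12.9 to 29.7%) and 24.9% of the single regions (23.4 to 26.4%), and these intervals overlapped. Between 3 Mb, where mouse assemblies begin beside the centromere, and the next 200 kb lay 2 small blocks with 5 members. One was a pair on chromosome 11 from 3000380 to 3004103, 3322 bp apart. The other had 3 regions on chromosome 18 from 3005250 to 3010443, with gaps of 329 and 4262 bp. None of these 5 regions was merged from 2 peaks.

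Many small blocks had a further region not far away. The nearest region outside the block was within 100 kb for 35 of the 98 blocks (35.7%, 26.3 to 46.0%) and within 50 kb for 25 (25.5%, 17.2 to 35.3%). Of the 3357 single regions, 24.6% (23.2 to 26.1%) had another within 100 kb and 11.9% (10.8 to 13.0%) within 50 kb. The medians were 198 kb for the blocks and 230 kb for the single regions. These values come from the gaps that the rule used to end a block, and most single regions near each other are counted as neighbours from both sides, so they are given as a description. Of the 93 blocks with a region on both sides, the most isolated was the pair on chromosome 2 from 51122808 to 51130191, 1556 kb from the nearest. The other 5 stood first or last on their chromosome and had a neighbour on 1 side. Among those, the block on chromosome 18 from 3005250 was 2090 kb from it, and the pair on chromosome 13 from 120276500 to 120279417 was 1597 kb from it.

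**Figure D5:**
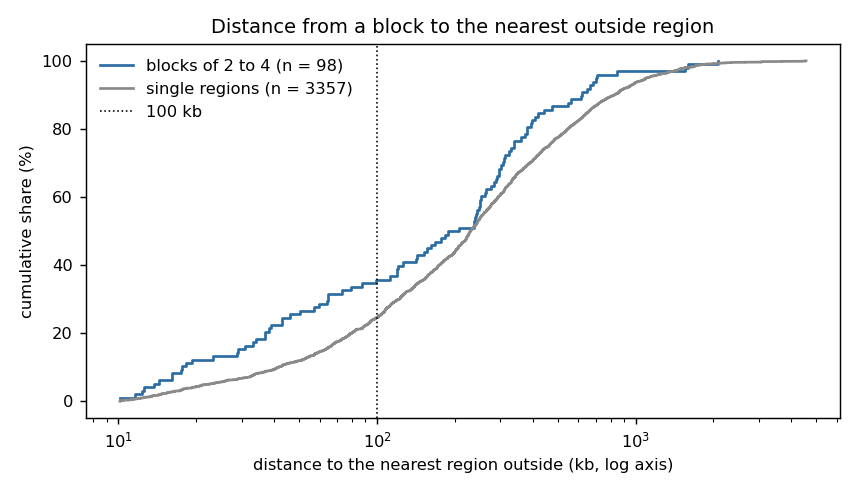
Cumulative share in percent (y axis) of the 98 small blocks (blue) and the 3357 single regions (grey) whose nearest outside region lies within the distance on the x axis (kb, log scale). At 100 kb (dotted) the curves stand at 35.7% and 24.6%. The medians are 198 and 230 kb, and the upper quartiles are 335 kb for the blocks and 462 kb for the single regions.

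In 4 places small blocks followed each other with gaps of at most 100 kb, 9 blocks in all; they were chosen with these values in view. On chromosome 1 from 90110751 to 90164030, 3 pairs stood within 53.3 kb, with 5915, 3960 and 8602 bp inside the pairs and 17543 and 16054 bp between them. On chromosome 8 from 19920240 to 19977307, the block of 4 and the loose block of 3 described above stood 36807 bp apart, which put 7 regions in 57.1 kb. The next region beyond them was 3796090 bp away on the distal side. On chromosome 9 from 7934517 to 8004369, a pair of regions from 1 peak with a gap of 9104 bp stood 38997 bp from the merged pair at 8001452, with 1 single region before them. That region, 18218 bp from the first pair, was merged from 2 peaks as well. On chromosome 13 from 55200711 to 55276236, the pair with a gap of 9651 bp, made of regions from 1 peak, stood 64895 bp from the merged pair at 55275659. Merged and unmerged pairs thus stood side by side in 2 of the 4 places.

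The blocks just past the upper limit of 4 regions were 2 blocks of 5, which are no members. That on chromosome 2 from 98502397 to 98507356 was merged in all 5 regions, and that on chromosome 18 from 35015874 to 35023809 in 1 of 5. The 4 blocks just inside the limit, those of 4 regions, held 0 merged regions of 16, which allows a share of up to 20.6% by the exact interval (18.8% as 3 counts of the total). Counted as blocks, 0 of 4 allows up to 60.2%.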

How the data were processed

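Hopx-Flag chromatin from embryonic day 9.5 mouse hearts was sequenced in 4 libraries, 1 per group, as the titles give it. The tools named are HOMER and Bowtie 0.12.7 and the build is mm9, per the submitters' processing notes, and per the series' design text in the labels background was subtracted. How peaks were set and merged is not given in the sources used here. A single merged list without a header was deposited by the authors. Among its columns are the chromosome, positions in bp per the labels' build, and the region name, whose last number was read as the number of merged peaks. The deposited score, always 1, was not used. Starts are counted from 1 here.

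Blocks and gaps were computed with Python 3.11.15, numpy 2.4.6, pandas 2.3.3 and scipy 1.17.1, and drawn with matplotlib 3.10.9. As a check of the code only, the block step was run on simulated positions built with the same gap limit. It returned the simulated numbers of members and blocks. No depth stands behind the list, so only counting intervals are given, and no test was run on 1 unreplicated list. Blocks named are those of 4 regions, those with a merged region, the 5 tightest and 5 loosest blocks of 3 and of 2, and those in the first 200 kb after 3 Mb. The members and rules were chosen with earlier results of these data known. Planned work on genes, motifs and base composition was not run, for want of an mm9 sequence and annotation in use here.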

Additional observations from a re-analysis of the deposited data

How the results depend on the processing

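The number of members, 218, rose to 349 with a gap limit of 20 kb, and 208 of the 218 remained members. At 5 kb it was 147, and 137 remained. It was 220 with centres at most 10 kb apart, 186 with regions within 1 kb counted once, 202 for blocks of 2 or 3 and 246 for blocks of 2 to 6. The share merged from 2 peaks (5.05%) stayed inside its counting interval in each of 6 alternatives, the lowest being 3.72% (20 kb) and the highest 8.16% (5 kb). Among them, that with the block as the unit (6.12%) is a different quantity, the share of blocks that hold a merged region. The alternatives reuse many of the same regions, so they are no independent support for the share. The median gap of 3404 bp became 3605 bp between centres. Added after the data were seen were the share of blocks with an outside region nearby, at 100 kb (35.7%) as at 50 kb (25.5%), and the share merged in larger blocks without the chromosome 9 block (20%, against 49.2% with it). Alternatives that need an mm9 genome, annotation or chromosome lengths could not be tried. No paired analysis was possible because the groups have 1 library each and share 1 list. With unknown depth, a low count on a chromosome cannot be read as an absence of such blocks.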
